A study of Arabidopsis thaliana with 26 samples.

Results

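Of 33602 genes counted in Arabidopsis thaliana seedlings, 134 were low after 48 and 72 h of high light and were still low after a return to growth light. They were chosen on CPM, the counts scaled to a library total of 1000000, averaged over the 2 libraries of a group, as log2 ratios with 1 CPM added to both sides. L(48) and L(72) are the ratios of high light over growth light at 48 and 72 h, and R is the ratio of recovery over growth light at 72 h. A member has all 3 values at or below -0.8. At 48 and 72 h together, 876 genes met the first 2 conditions. The other 742 of them had R above -0.8 and are called restored here, a name that covers any R above the threshold.

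All libraries come from whole seedlings of the Col-0 ecotype, 7 days old when treatment began and raised at 22 °C in unbroken light, and each was made from 25 pooled plants. High light (HL, 1200 µmol photons per square metre per second) was given for 0.5, 6, 12, 24, 48 or 72 h, and growth light plants (GL, 60 on the same scale) were harvested at the same times. Recovery plants had 72 h of HL and then 14 h of GL, so they were taken 86 h after the start, and the GL libraries nearest in age are those of 72 h. There are 2 libraries in each of the 13 groups, with totals of 13637677 to 29697279 counts, so 1 count equals 0.0337 to 0.0733 CPM. Whether both libraries of a group were grown apart is not in the labels. The p-values therefore cover the spread between such libraries, which may be technical. Markers of root hairs (14 genes) and of the leaf antenna (21 genes) had counts in every group, which fits libraries of whole seedlings.

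Plants in strong light make less light-harvesting antenna, the chlorophyll proteins that pass light energy to the 2 photosystems, and build it up again in weak light. Iron ties into this machinery, since photosystem I, ferredoxin, ferritin and the iron superoxide dismutase all hold it and chlorophyll synthesis shares its precursors with haem. Seedlings also adjust growth regulators, cell walls, nutrient uptake and defence proteins to the light they receive.

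The start regions of 3 antenna members are shown because the antenna genes carry some of the clearest results below. They are the 250 bases before the annotated gene start on the gene's own strand, read by locus from RefSeq's TAIR10.1 assembly. Capitals mark CCAAT on either strand.
LHB1B1 (chr2:14524357-14524606, plus strand): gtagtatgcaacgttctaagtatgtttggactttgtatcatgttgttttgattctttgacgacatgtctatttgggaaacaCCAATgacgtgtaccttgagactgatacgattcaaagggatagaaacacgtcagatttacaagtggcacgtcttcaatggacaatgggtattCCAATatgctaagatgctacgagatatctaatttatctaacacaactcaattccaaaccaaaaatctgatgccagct
LHCB2.3 (chr3:10255656-10255905, plus strand): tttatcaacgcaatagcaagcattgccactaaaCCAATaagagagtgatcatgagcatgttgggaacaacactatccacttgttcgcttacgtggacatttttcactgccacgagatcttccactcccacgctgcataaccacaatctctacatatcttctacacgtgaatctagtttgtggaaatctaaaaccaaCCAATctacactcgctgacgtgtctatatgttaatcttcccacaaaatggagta
LHCB2.2 (chr2:1800473-1800722, minus strand): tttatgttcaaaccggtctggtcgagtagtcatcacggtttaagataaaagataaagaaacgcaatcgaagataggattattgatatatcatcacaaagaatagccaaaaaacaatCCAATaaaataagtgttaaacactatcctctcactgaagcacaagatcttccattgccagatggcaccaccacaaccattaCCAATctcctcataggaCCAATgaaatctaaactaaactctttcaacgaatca

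CCAAT lies in 11 of the 12 windows of the light-harvesting, photosystem I and ferredoxin members (91.7%), in 47% of the windows of all 134 members and in 47.5% of the 21328 windows of tested genes. It is in 8 of 8 windows of antenna members and in 11 of 13 windows of the other antenna genes, so most antenna genes hold it, members or not. The TATA box TATAAA is in 1 of those 12 windows (8.33%), against 46.4% of all tested genes. Site II, GGCCCA, is in 2.24% of the members' windows, 6.07% of the restored genes' and 15.9% of all. The G-box CACGTG is in 6.72% of the members' windows and 7.36% of all, and ACGTGT, the core of an abscisic acid element that can overlap it, in 8.21% and 11.3%. The other motifs searched on both strands were the evening element AAAATATCT, the I-box GATAAG, the W-box TTGACC or TTGACT, the auxin element TGTCTC, the telo-box AAACCCTAA and the CCA1 site AAAAATCT. Their shares in the members' windows lay within 2 percentage points of those over all tested genes. A match is a run of letters and was not tested as a binding site.

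The times the choice did not use, 0.5 to 24 h, show how the members came to be low. At 0.5 h, 28 of 134 were called lower in HL and 9 higher, where 8.29% of the 21449 genes tested were called lower and 13.5% higher (edgeR quasi-likelihood test, adjusted p below 0.05). At 6 h, 49 were lower and 15 higher (all genes, 18.2% and 22.9%), and at 12 h 86 were lower and 2 higher (21.1% and 24.1%). At 24 h, 110 were lower and 2 higher (23.9% and 26%), and the median log2 fold change of the members was -1.65. In bulk seedlings, fewer cells of a type and less RNA per cell cannot be told apart. All 134 members passed the filter on low counts. The medians at the 3 earlier times were -0.27, -0.31 and -1, so the median member was low by 12 h and lower by 24 h. Not every member followed, as 46 did not pass at 12 h and 22 did not at 24 h.

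The first call as lower was spread over the whole day. Of the members, 28 were first called lower at 0.5 h, 29 at 6 h, 36 at 12 h and 23 at 24 h, and 18 were not called lower at any of the 4 times. Of the 742 restored genes, 303 were first called lower at 0.5 h, 208 at 6 h, 94 at 12 h and 120 at 24 h, and 17 at none. First calls were not counted over all tested genes, so the spread has no background beside it. At 24 h, 82.1% of the members and 96.2% of the restored genes were called lower. No test of the difference between the 2 sets was made, since both were chosen on later times of the same course. The HL effect itself changed between 0.5 and 24 h in 88 members, downward in 87 (all genes, 17.5%) and upward in 1 (14.9%).

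**Figure D1:**
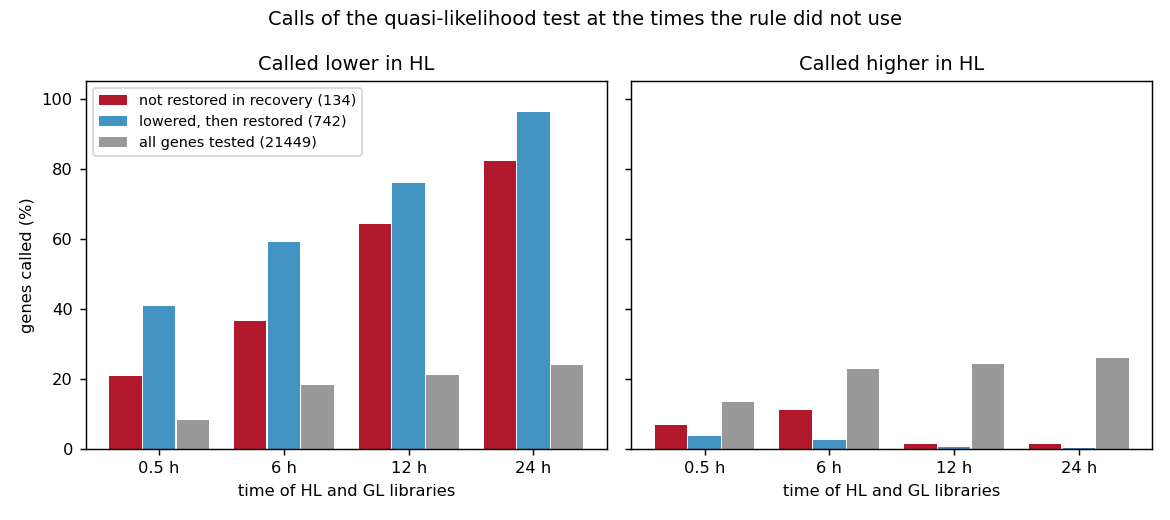
Share of genes called lower (left) and higher (right) in HL than in GL at 4 times (edgeR adjusted p below 0.05), for the 134 members, the 742 restored genes and all 21449 tested genes. The members' share called lower runs from 20.9% at 0.5 h to 82.1% at 24 h and is below that of the restored genes at each time.

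The 0.5 h count rests partly on 1 library. Without the second GL0.5h library, 14 members were lower and 14 higher at that time. At 24 h, leaving out any 1 library gave 103 to 106 lower.

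R ran from -0.8 to -3.61 among the members, with a median of -1.05. At the threshold the set is not separated from its neighbours. Of the 876 lowered genes, 36 have R between -0.9 and -0.8, and 36 more lie between -0.8 and -0.7. Leaving out 1 library of the rule's groups gave 112 members without the first recovery library and 169 without the second, the range over all such choices. AT2G47360, an uncharacterized protein just inside, had 3.14 and 3.46 CPM in recovery and 5.83 and 7.19 CPM in GL72h, with R of -0.805. AT4G01390, a TRAF-like family protein just outside with R of -0.793, had 24.9 and 24.6 CPM in recovery and 44.2 and 43.1 CPM in GL72h. Among genes of at least 5 CPM in GL72h, the next inside were AT4G22517, of a lipid transfer protein family, at -0.805 and AT3G62040, of a hydrolase family, at -0.81. The next outside were AT3G46270, like receptor kinases, at -0.799 and AT2G37130, a peroxidase, at -0.792. As the rule nearly fixes, both recovery libraries lay below both GL72h libraries in all 134 members, where 22.3% of all tested genes did so. The same held for HL against GL at 72 h (all genes, 30.3%) and at 48 h (26.9%).

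Recovery can also be set beside HL72h, as a description, since the rule used both groups. In 99 members both recovery libraries were above both HL72h libraries, where 32.3% of all genes were. The median member stood at 42.5% of its GL72h level in recovery, where the rule's R threshold lets no member reach its full GL72h level. The median log2 ratio of recovery over HL72h was 0.75, beside -0.02 over all genes tested. By size, 47 members were above HL72h by at least 1 on the log2 scale (all genes, 2.88%) and 2, FSD1 and AT1G26250, were below it by as much (3.34%). In 7 members both recovery libraries were below both HL72h libraries, where 36.4% of all genes were. For restored genes the rule itself puts the recovery mean above that of HL72h, so they are not set beside these counts.

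**Figure D2:**
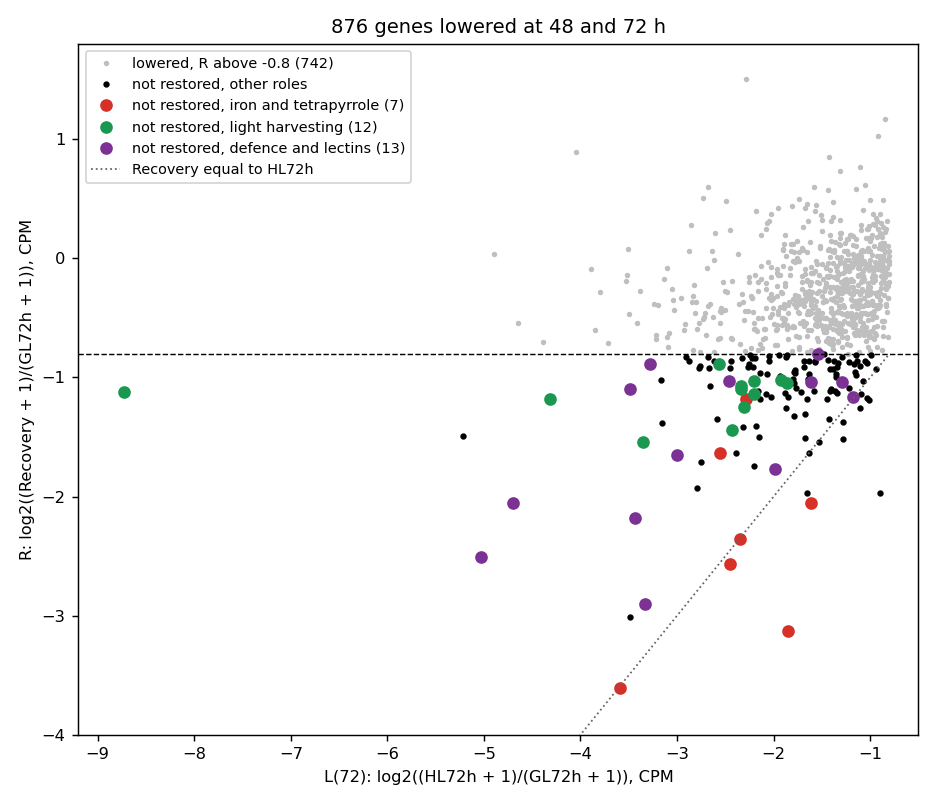
L(72) (x axis) and R (y axis), both log2 ratios of CPM + 1 over GL72h, for the 876 genes lowered at 48 and 72 h, with the rule's R threshold of -0.8 (dashed). On the dotted line recovery equals HL72h: 12 light-harvesting and photosystem members (green) lie above it, LHB1B1 at an L(72) of -8.73, and of the 7 iron and tetrapyrrole members (red) FSD1 lies furthest below it. Defence and lectin members are violet and other members black.

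The light-harvesting and photosystem group had 12 members, in each of which both recovery libraries lay above both HL72h libraries (all genes, 32.3%). It holds 8 of the 21 antenna genes (CAB1, CAB2, CAB3, LHB1B1, LHCB2.1, LHCB2.2, LHCB2.3 and LHCB3, all of the main trimer antenna of photosystem II), the photosystem I subunits PSAF, PSAN and PSAD-2, and FED A, the main leaf ferredoxin that takes electrons from photosystem I. Recovery levels were 34.3 to 54% of GL72h, with a median of 46.2%, under a ceiling that the rule's R threshold sets. HL72h levels were 0.152 to 27.5%, with a median of 19.6%. At 0.5 h PSAD-2 alone was lower (all genes, 8.29%), at 6 h 11 of 12 were (18.2%), and at 24 h all 12 (23.9%).

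LHB1B1, which codes for one copy of the main antenna protein LHCB1, had the lowest L(72) of the set. It had 504 and 608 CPM in recovery, 1.54 and 2.16 CPM in HL72h and 1170 and 1260 CPM in GL72h. The 2 HL72h values are 21 and 37 counts, and the recovery values are 7719 and 10011 counts. At 0.5 h its levels were 2230 and 2180 CPM in HL and 1920 and 2650 CPM in GL, so the groups overlapped, and at 6 h they were 24.3 and 28.2 CPM in HL and 2510 and 2150 CPM in GL. At 6 h the groups were far apart, with a log2 fold change of -6.46 ± 0.24 (SE, edgeR adjusted p = 2.38e-14), and at 24 h the value was -9.45 ± 0.29 (adjusted p = 5.68e-16).

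The copy beside it in the genome, LHB1B2, was outside the set. LHB1B2 had 2470 and 2670 CPM in recovery, 1250 and 1340 CPM in HL72h and 3610 and 4010 CPM in GL72h, with an L(72) of -1.55 and R of -0.57. At 24 h its log2 fold change was -2.92 (edgeR adjusted p = 5.07e-12). Both copies were low in HL, and LHB1B1 had the deeper L(72), a difference that was not tested. Copies of LHCB1 and LHCB2 are nearly alike in sequence and how reads matching several places were counted is not given in the sources used here, so the split of reads between copies is uncertain.

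The other LHCB1 members lie side by side on chromosome 1 (chr1:10472280-10479114 for CAB3, CAB2 and CAB1). CAB1 had 5110 and 5470 CPM in recovery, 1660 and 1640 CPM in HL72h and 9230 and 10400 CPM in GL72h. CAB2 had 1060 and 1050 CPM in recovery, 511 and 550 CPM in HL72h and 2760 and 2950 CPM in GL72h. CAB3 had 1630 and 1680 CPM in recovery, 720 and 742 CPM in HL72h and 3160 and 3580 CPM in GL72h. In each of the 3 genes the recovery libraries lay between the other 2 groups, with no overlap, and CAB1 was nearest to GL72h with 54%.

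The LHCB2 genes, whose protein is the antenna part that moves between photosystems when phosphorylated, differed in depth. LHCB2.3 had 408 and 414 CPM in recovery, 39.7 and 52 CPM in HL72h and 909 and 962 CPM in GL72h. LHCB2.2 had 288 and 297 CPM in recovery, 78.5 and 86.3 CPM in HL72h and 824 and 880 CPM in GL72h. LHCB2.1 had 561 and 561 CPM in recovery, 292 and 308 CPM in HL72h and 1080 and 1200 CPM in GL72h. LHCB2.2 was furthest from GL72h in recovery, at 34.3%. At 24 h their log2 fold changes were -4.14 ± 0.22 for LHCB2.3, -3.37 ± 0.2 for LHCB2.2 and -2.54 ± 0.14 for LHCB2.1 (SE, edgeR adjusted p at or below 4.81e-12 for each). LHCB3, the other protein of the trimer, had 1570 and 1620 CPM in recovery, 720 and 805 CPM in HL72h and 3380 and 3650 CPM in GL72h.

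The 3 photosystem I genes were lower from 6 h on, and their recovery libraries lay above those of HL72h. PSAF, the subunit where plastocyanin docks, had 921 and 986 CPM in recovery, 449 and 459 CPM in HL72h and 2270 and 2250 CPM in GL72h. Its log2 fold change was -0.82 ± 0.11 at 6 h and -2.06 ± 0.11 at 24 h (SE, edgeR adjusted p = 2.47e-06 and 1.75e-12). PSAN, on the lumen side, had values of -0.9 ± 0.13 and -2.14 ± 0.13 at the same times. PSAD-2, one of 2 genes for the subunit where ferredoxin docks, was already lower at 0.5 h, at -0.4 ± 0.1 (edgeR adjusted p = 0.00411), and was at -1.89 ± 0.1 at 6 h. Its twin PSAD-1 was outside the set with R of -0.36.

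FED A took another course before it became low. At 6 h it had 1260 and 1470 CPM in HL and 815 and 789 CPM in GL, and the log2 fold change of 0.78 ± 0.12 was called higher (edgeR adjusted p = 1.86e-05). At 24 h it had 947 and 1030 CPM in HL and 1180 and 1370 CPM in GL, called lower at -0.38 ± 0.12 (adjusted p = 0.0109). At 72 h it had 386 and 348 CPM in HL and 1390 and 1280 CPM in GL, and in recovery 600 and 690 CPM.

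**Figure D3:**
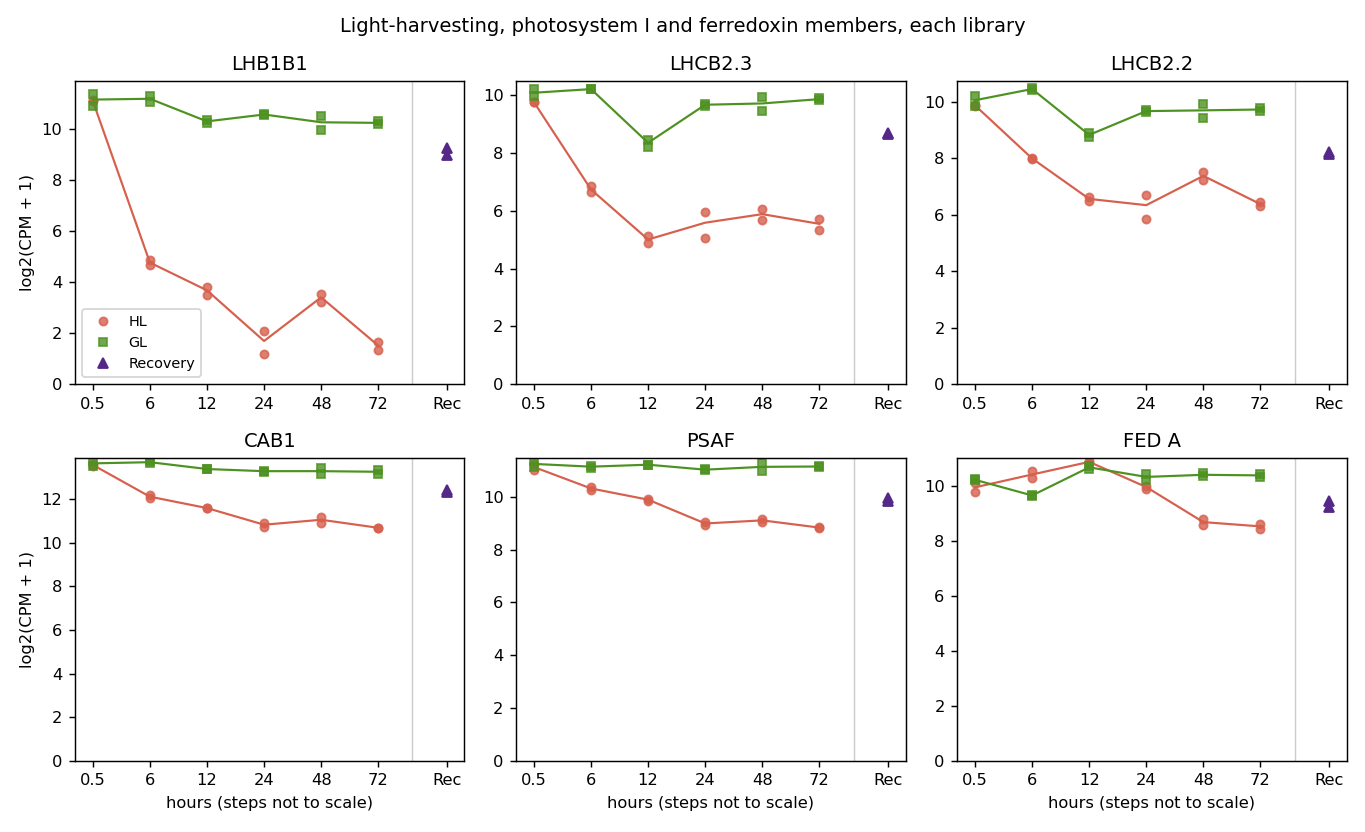
log2(CPM + 1) in each library (points) and group means (lines) over the course for 6 members, with HL in red, GL in green and recovery in violet at the right. LHB1B1 falls between 0.5 and 6 h and is far back up in recovery (504 and 608 CPM), while FED A is above GL at 6 h and below it from 24 h.

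Most of the antenna list was lower in HL with these members. Of its 21 genes, 17 were lower and 2 higher at 6 h, and 18 lower and 2 higher at 24 h, with a median log2 fold change of -2.48 at 24 h, beside 23.9% lower and 26% higher over all genes. The 2 higher genes were LHCB4.3 and AT1G76570, at 2.09 and 1.54 on the log2 scale at 24 h, and Lhca5 did not pass (0.13, edgeR adjusted p = 0.166). Its summed level was 29500 and 31500 CPM in the 2 recovery libraries, 15100 and 15400 CPM in HL72h and 49700 and 53900 CPM in GL72h. As the rule nearly fixes, the 8 members have the 8 lowest R of the list. The next is LHCA1 at -0.78, with no gap between members and the rest. In the list of 30 nuclear photosystem genes, 4 are members and 15 are restored genes, and 28 were lower and 2 higher at 24 h.

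The iron, tetrapyrrole and antioxidant group had 7 members and the lowest median recovery level of the role groups. It holds NEET, an iron-sulfur protein of chloroplasts and mitochondria, FSD1, the iron superoxide dismutase, FER4, a ferritin that stores iron, AT3G25190, a vacuolar iron transporter family protein, ENH1, a chloroplast rubredoxin, HEMA1, the glutamyl-tRNA reductase that starts chlorophyll and haem synthesis, and CAT3, a catalase, which is a haem enzyme. Recovery levels were 4.18 to 44.1% of GL72h with a median of 16.5%, and HL72h levels 4.28 to 32.2% with a median of 18%. In 5 of the 7 the mean in recovery was below that in HL72h, which holds for 14 of all 134 members and 52.4% of all genes. For NEET, AT3G25190 and HEMA1 the log2 ratio of recovery over HL72h was only -0.02, -0.01 and -0.12, with overlapping libraries. Both recovery libraries lay below both HL72h libraries in 2 of the 7 (all genes, 36.4%) and above both in 2 (32.3%).

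NEET has the lowest R of the set, -3.61. It had 1.31 and 0.607 CPM in recovery, 1.03 and 0.932 CPM in HL72h and 26.1 and 19.7 CPM in GL72h. The recovery values are 20 and 10 counts and the HL72h values 14 and 16 counts, so the 2 low groups cannot be told apart at this depth. Earlier NEET was high: at 6 h it had 50.6 and 47.6 CPM in HL and 4.97 and 4.36 CPM in GL, a log2 fold change of 3.39 ± 0.39 (SE, edgeR adjusted p = 3.57e-07). At 24 h it had 33.9 and 26.6 CPM in HL and 14.4 and 21.5 CPM in GL, which did not pass (adjusted p = 0.0702). Its GL level was not flat, with 7.23 and 11.4 CPM at 0.5 h and 25.8 and 11.8 CPM at 48 h, and the plot of iron genes shows a GL peak at 12 h.

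FSD1 was lower in recovery than at the end of HL. It had 48.6 and 48 CPM in recovery, 123 and 115 CPM in HL72h and 444 and 419 CPM in GL72h, so the recovery level is 11.2% of GL72h and the HL72h level 27.5%. The 3 groups do not overlap, and the log2 ratio of recovery over HL72h was -1.28. At 6 h FSD1 was higher in HL, with 391 and 394 CPM in HL and 190 and 208 CPM in GL (log2 fold change 0.99 ± 0.15, edgeR adjusted p = 1.68e-05), and at 24 h it had 388 and 296 CPM in HL and 357 and 340 CPM in GL. FSD1 was therefore low in HL only at the 48 and 72 h times, and lowest in recovery.

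ENH1 and HEMA1 followed the same order of events. ENH1 had 217 and 231 CPM in HL and 36.1 and 35.4 CPM in GL at 6 h (log2 fold change 2.66 ± 0.21, edgeR adjusted p = 1.07e-09), and it was 1 of 2 members called higher at 24 h (0.79 ± 0.19, adjusted p = 0.00171). It then had 26.6 and 18.8 CPM in recovery, 32 and 30.4 CPM in HL72h and 103 and 90.8 CPM in GL72h. HEMA1 was higher at 6 h (0.95 ± 0.16, adjusted p = 4.03e-05) and had 305 and 280 CPM in HL and 271 and 289 CPM in GL at 24 h. HEMA1 then had 55.3 and 44.6 CPM in recovery, 54.8 and 54 CPM in HL72h and 320 and 284 CPM in GL72h. Both ENH1 recovery libraries lay below those of HL72h, and those of HEMA1 overlapped with HL72h.

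FER4 and CAT3 were part of the way back. FER4 had 6.47 and 4.86 CPM in recovery, 2.79 and 2.21 CPM in HL72h and 21.4 and 17.9 CPM in GL72h, and at 6 h its log2 fold change was 0.94 ± 0.2 (SE, edgeR adjusted p = 0.000621). CAT3 had 433 and 458 CPM in recovery, 205 and 205 CPM in HL72h and 993 and 1020 CPM in GL72h. CAT3 was lower from 6 h on, at -2.01 ± 0.16 at 12 h (edgeR adjusted p = 1.49e-09) and -2.12 ± 0.17 at 24 h. AT3G25190 had 2.55 and 2.55 CPM in recovery, 2.86 and 2.27 CPM in HL72h and 18.1 and 16.3 CPM in GL72h, and was lower from 6 h on (-0.72 ± 0.24, adjusted p = 0.0182).

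**Figure D4:**
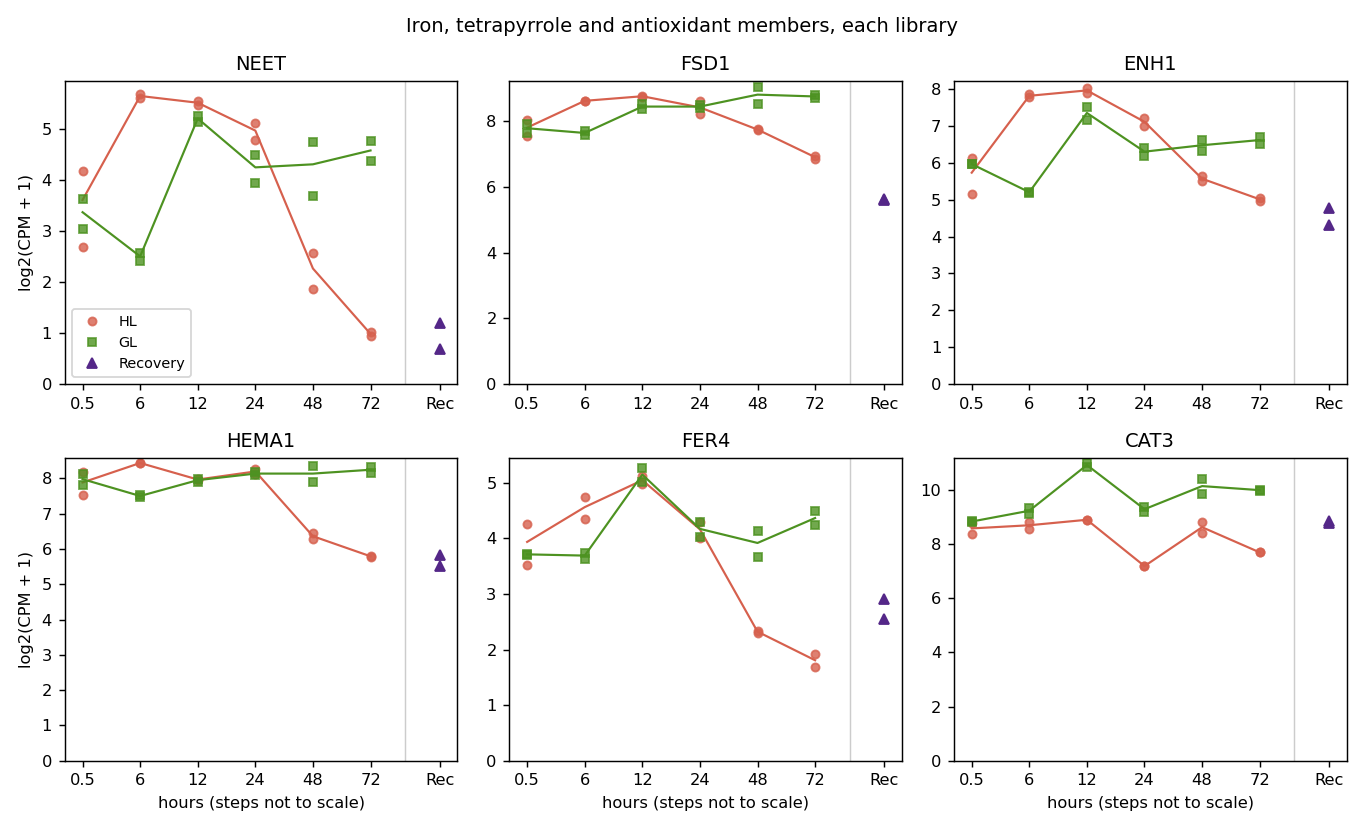
log2(CPM + 1) in each library (points) and group means (lines) for 6 iron, tetrapyrrole and antioxidant members, with HL in red, GL in green and recovery in violet at the right. NEET, FSD1, ENH1, HEMA1 and FER4 are above GL at 6 h and below it at 48 and 72 h, and the recovery points of NEET, FSD1, ENH1 and HEMA1 are no higher than HL72h beyond the spread of the 2 libraries.

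The other iron genes were divided. In a list of 26 iron genes, 16 were lower and 6 higher at 6 h (all genes, 18.2% and 22.9%), and 8 lower and 10 higher at 24 h (23.9% and 26%). FER1, FER3, NAS3, YSL1 and YSL2 were higher at 6 h, as FER4 was. YSL2 was not low later, with L(72) of 1.43 and R of -0.14. IRT1, the main iron uptake carrier of roots, and FRO2, its partner reductase, were low at 72 h, with L(72) of -3.1 and -2.11. Both were already lower at 6 h, at -1.26 and -1.15 (edgeR adjusted p = 7.13e-05 and 0.000226). Their R was -0.66 and -0.68, above the threshold. In recovery, 10 of the 26 had R of at least 0.8, which 0.909% of all tested genes had, and 4, FER4 among them, had R of -0.8 or less, which 1.31% had. BHLH100, a regulator known to be induced when iron is short, had 656 and 557 CPM in recovery, 495 and 473 CPM in HL72h and 60.2 and 72.5 CPM in GL72h, but 28.5 and 21.5 CPM in HL and 120 and 141 CPM in GL at 6 h (log2 fold change -2.38, edgeR adjusted p = 2.31e-08). FER1, a ferritin outside the set with L(48) of -0.09 and L(72) of -0.72, had 11.2 and 7.16 CPM in recovery and 46.2 and 35.2 CPM in GL72h. At 6 h FER1 had 141 and 127 CPM in HL and 33.8 and 17.4 CPM in GL, where BHLH100 was lower in HL. At 24 h both FER1 and BHLH100 were called higher, at 1.37 and 0.58 on the log2 scale (edgeR adjusted p = 0.000569 and 0.0264).

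Of the 24 genes of chlorophyll synthesis, HEMA1 is the one member. The list had 12 lower and 3 higher at 24 h, with a median log2 fold change of -0.21 and a median R of -0.1.

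The defence and lectin group had 13 members with the deepest median L(72) of the groups, -3. THI2.2, a thionin, which is a small antimicrobial protein, had 2.09 and 2.25 CPM in recovery, 1.17 and 1.51 CPM in HL72h and 24.5 and 20.6 CPM in GL72h, with R of -2.9. It was lower from 6 h on and its log2 fold change at 24 h was -1.73 ± 0.24 (SE, edgeR adjusted p = 3.02e-06). A second thionin, AT1G66100, was higher at 24 h (0.63 ± 0.18, adjusted p = 0.00537), with 108 and 82.8 CPM in HL and 68.2 and 53.1 CPM in GL, and then had 51.8 and 61.3 CPM in recovery, 10.2 and 9.91 CPM in HL72h and 123 and 123 CPM in GL72h.

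Several genes of this group were low beside a control that had gone up with age. LURP1, known for its induction by an oomycete pathogen, had 13.1 and 23.5 CPM in recovery, 18.3 and 12.9 CPM in HL72h and 55.8 and 74.3 CPM in GL72h, but 8.66 and 14.7 CPM in GL24h and 0.979 and 0.15 CPM in GL0.5h. PCC1, a gene controlled by pathogens and the clock, had 14.3 and 19.7 CPM in recovery, 2.35 and 1.4 CPM in HL72h and 65.6 and 81.5 CPM in GL72h, with 2.34 and 0.599 CPM in GL0.5h. Set against the mean of all 12 GL libraries in place of GL72h, R was -0.04 for LURP1, -0.22 for PCC1 and -0.59 for AT3G22235, a cysteine-rich protein near PCC1 on chromosome 3. Against GL48h, R was -0.68 for LURP1, -0.75 for PCC1 and -1.18 for AT3G22235. So R of these 3 genes depends on the GL age used, and against all GL libraries it is above the rule's threshold of -0.8.

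The lectins kept a low R against both GL72h and the mean of all GL libraries. Against GL48h, R was -0.35 for AT1G52060, a mannose-binding lectin, and -1.12 or lower for the legume lectin members. AT5G03350, a legume lectin family protein, had 7.71 and 14.1 CPM in recovery, 0.88 and 1.28 CPM in HL72h and 71.8 and 62 CPM in GL72h, and R was -2.51 against GL72h and -1.21 against all GL. AT3G15356, of the same family, had 80 and 77.6 CPM in HL and 40.6 and 53.8 CPM in GL at 0.5 h, called higher (0.74 ± 0.2, edgeR adjusted p = 0.01), and was lower at 24 h (-1.58 ± 0.23, adjusted p = 4.71e-06). Of the 13, 7 were lower at 24 h and 1 higher (all genes, 23.9% and 26%). Of 28 genes in a list of jasmonate and salicylate defence, 1 is a member, LURP1, and that list had 4 lower and 15 higher at 24 h.

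The wall, peroxidase and surface group had 15 members, 14 of them lower at 24 h (all genes, 23.9%). AT3G01190, a class III peroxidase of the cell wall, had 17.5 and 23.4 CPM in recovery, 4.69 and 3.85 CPM in HL72h and 39.1 and 36.7 CPM in GL72h. AT3G49960, another such peroxidase, had 6.66 and 7.83 CPM in recovery, 1.03 and 2.45 CPM in HL72h and 16.7 and 16 CPM in GL72h. One more, AT2G39040, had no count in either HL72h library, with 0.392 and 0.85 CPM in recovery and 1.77 and 2.17 CPM in GL72h. In each of these 3 the recovery libraries lay between those of HL72h and GL72h. AT2G35380, the last of the 4 peroxidase members, had 6.27 and 8.07 CPM in recovery, 7.92 and 6.29 CPM in HL72h and 14.9 and 14.3 CPM in GL72h, so its recovery and HL72h libraries overlapped.

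Extensins, hydroxyproline-rich proteins that stiffen walls, were also in the group. AT3G16670, an extensin family protein, had 20.7 and 23.8 CPM in recovery, 1.1 and 0.408 CPM in HL72h and 65.9 and 63.2 CPM in GL72h. EXT11, named as an extensin, had 5.68 and 5.71 CPM in recovery, 0.587 and 1.11 CPM in HL72h and 11.5 and 11.5 CPM in GL72h. AT1G26250, an extensin-like protein, differed: it had 3.85 and 5.83 CPM in recovery, 9.75 and 12.7 CPM in HL72h and 18.7 and 25 CPM in GL72h, so its recovery libraries lay below those of HL72h. AGP30, an arabinogalactan protein, had 3.01 and 2.55 CPM in recovery, 0.44 and 0.757 CPM in HL72h and 8 and 9.24 CPM in GL72h, and its log2 fold change at 24 h was -4.62 ± 0.53 (SE, edgeR adjusted p = 2.32e-07). CDEF1, a lipase-like enzyme that acts on cutin, had 27.1 and 28.6 CPM in recovery, 10.7 and 9.73 CPM in HL72h and 56.6 and 49.7 CPM in GL72h. AT5G04960, of an invertase and pectin methylesterase inhibitor family, was lower at 0.5 h (-0.74 ± 0.2, edgeR adjusted p = 0.00785) and at 24 h (-2.23 ± 0.2). XTH6, an enzyme that cuts and joins xyloglucan, fell at all 4 tested times, with log2 fold changes of -0.76 ± 0.11 at 0.5 h and -2.35 ± 0.12 at 24 h (SE, edgeR adjusted p = 4.91e-13 at 24 h).

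The lists of root markers were divided. Of 14 root hair markers, 13 were lower at 24 h (all genes, 23.9%), and their summed level was 124 to 140 CPM in recovery, 26.7 to 39 CPM in HL72h and 165 to 179 CPM in GL72h. None of the 14 is a member, 10 are restored genes, and their median R was -0.3. RSL2, a regulator named for root hairs and not on this list, is a member with R of -0.88. Of 10 endodermis markers, 7 were lower and 1 higher at 24 h, and their summed level was 108 to 123 CPM in recovery, 82.5 to 82.8 CPM in HL72h and 134 to 140 CPM in GL72h. Of 12 other root markers, 1 is a member, AMT1;3. At 24 h, 4 of the 12 were lower and 8 did not pass. The summed level of the 12 was 286 to 309 CPM in recovery, 180 to 192 CPM in HL72h and 322 to 336 CPM in GL72h. The part of these cells in the values of the wall group was not tested. In the class III peroxidase list, 4 of 57 tested genes are members and 12 are restored genes, and 28 were lower and 15 higher at 24 h.

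The regulators had 13 members, 12 of them lower at 24 h (all genes, 23.9%). PIF4, a transcription factor that promotes elongation and is held back by phytochrome, had 17.4 and 15.7 CPM in recovery, 10.3 and 10.4 CPM in HL72h and 34 and 34.6 CPM in GL72h. It was lower at all 4 tested times and lowest at 24 h, with 1.03 and 1.93 CPM in HL and 26.5 and 29.2 CPM in GL (log2 fold change -4.23 ± 0.24, edgeR adjusted p = 2.92e-12). BEE3, a brassinosteroid-responsive transcription factor, fell at all 4 times and had its lowest log2 fold change at 0.5 h, -2.85 ± 0.36, with 1.29 and 1.32 CPM in HL and 7.13 and 11.6 CPM in GL.

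RAV2, a repressor of flowering and growth, had 21 and 22 CPM in recovery, 12.7 and 11.4 CPM in HL72h and 43.8 and 44.8 CPM in GL72h. Its HL effect was alike over the first day, from -1.58 ± 0.12 at 0.5 h to -1.76 ± 0.13 at 24 h. CIPK20, a protein kinase of the calcium sensor network, was lower from 6 h on, at -0.77 ± 0.18 at 6 h and -1.99 ± 0.22 at 12 h. It was lowest at 24 h, with 0.452 and 0.872 CPM in HL and 28.1 and 24.5 CPM in GL. The log2 fold change there was -5.3 ± 0.31 (SE, edgeR adjusted p = 5.25e-12). By 72 h CIPK20 had 6.31 and 6.47 CPM in HL and 23.7 and 25.6 CPM in GL, and in recovery 11.4 and 11.5 CPM. In this group 6 were lower at 0.5 h (all genes, 8.29%), 8 at 6 h (18.2%) and 11 at 12 h (21.1%), and 1 was higher, at 0.5 h (13.5%).

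Receptor-like kinases and proteins had 8 members. CRK30, a cysteine-rich receptor-like kinase, had 3.79 and 3.64 CPM in recovery, 0.22 and 0.524 CPM in HL72h and 9.47 and 13.1 CPM in GL72h. It fell from 0.5 h on, with log2 fold changes of -1.28 ± 0.18 at 0.5 h and -4.22 ± 0.25 at 24 h (SE, edgeR adjusted p = 5.31e-12 at 24 h). RLP19, a receptor-like protein, was lower at each time from 0.5 h (-1.51 ± 0.17) to 24 h (-1.72 ± 0.18), and had 12.4 and 11.5 CPM in recovery, 4.69 and 5.3 CPM in HL72h and 24.4 and 24.1 CPM in GL72h. CRK30 is the 1 member among 30 tested cysteine-rich kinases, of which 18 were lower and 4 higher at 24 h.

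Transport (9 members) covered several nutrients. PHT1;1, a phosphate uptake carrier, had 13.7 and 16.6 CPM in recovery, 12.7 and 12.1 CPM in HL72h and 34.5 and 36.9 CPM in GL72h, and was higher at 6 h (0.59 ± 0.2) before it was lower at 24 h (-0.96 ± 0.2, edgeR adjusted p = 0.000459). AMT1;3, an ammonium carrier of roots, had 8.1 and 11.3 CPM in recovery, 10.9 and 10.7 CPM in HL72h and 24.6 and 21.6 CPM in GL72h, and was not called at 24 h (-0.32 ± 0.16, adjusted p = 0.106). For both the recovery libraries were close to those of HL72h. UMAMIT14, an amino acid exporter, was lower at 0.5 and 24 h, with R of -1.26 against GL72h and -0.37 against all GL libraries.

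Carbon and nitrogen metabolism (8 members) was lower at 24 h in all 8 (all genes, 23.9%). FUM2, the cytosolic fumarase, had 48.1 and 47.1 CPM in recovery, 25.2 and 29.9 CPM in HL72h and 125 and 131 CPM in GL72h, and its log2 fold change was -1.63 ± 0.12 at 24 h (SE, edgeR adjusted p = 1.02e-10). PCK2, a phosphoenolpyruvate carboxykinase, was higher at 0.5 h, with 10.7 and 10.3 CPM in HL and 3.21 and 4.69 CPM in GL (1.41 ± 0.32), and lower at 24 h (-2.07 ± 0.38, adjusted p = 0.000111). BGLU34, a myrosinase that splits glucosinolates, had 7.19 and 8.98 CPM in recovery, 0.66 and 1.63 CPM in HL72h and 13.9 and 16.4 CPM in GL72h.

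The 3 MLP genes, related to latex proteins and of unsettled function in Arabidopsis, took one course. All 3 were lower at 12 and 24 h (all genes, 21.1% and 23.9%) and none was called at 0.5 or 6 h. MLP328 had 26 and 31.1 CPM in recovery, 22.4 and 18.8 CPM in HL72h and 104 and 92.3 CPM in GL72h, and its neighbour MLP329 had 19.5 and 27.4, 12.4 and 13.1, and 45.7 and 41.2 CPM in the same order. At 24 h MLP328 was at -3.36 ± 0.33, MLP329 at -3.76 ± 0.34 and MLP34 at -2.43 ± 0.22 (log2 fold change ± SE, edgeR adjusted p at or below 2.38e-08 for each). MLP328 and MLP329 are adjacent and alike, so reads may be shared between them. The 3 are among the 8 tested genes of the MLP list.

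The remaining 46 members had no shared role by name. AT3G55240, a plant protein of unknown function, stood out with 0.392 and 0.607 CPM in recovery, 0.147 and 0 CPM in HL72h and 9.41 and 12.8 CPM in GL72h, which are 6 and 10 counts in recovery, 2 and 0 in HL72h and 160 and 206 in GL72h. At 24 h its log2 fold change was -4.64 ± 0.41. AT5G19240, a protein anchored to the membrane by a lipid, had the highest log2 fold change of the members at 0.5 h, with 240 and 228 CPM in HL and 41.1 and 57.2 CPM in GL (2.25 ± 0.13), yet had 19.4 and 19.5 CPM in recovery, 23.3 and 21 CPM in HL72h and 43.7 and 48 CPM in GL72h. AT1G15830, an uncharacterized protein, was lower at 0.5 h (-1.23 ± 0.17) and at 24 h (-2.65 ± 0.21), with 3.01 and 4.13 CPM in recovery, 1.1 and 1.98 CPM in HL72h and 7.59 and 8 CPM in GL72h. AT5G28630, a glycine-rich protein, had log2 fold changes of 1.7 ± 0.2 at 0.5 h and -3.29 ± 0.34 at 24 h.

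**Figure D5:**
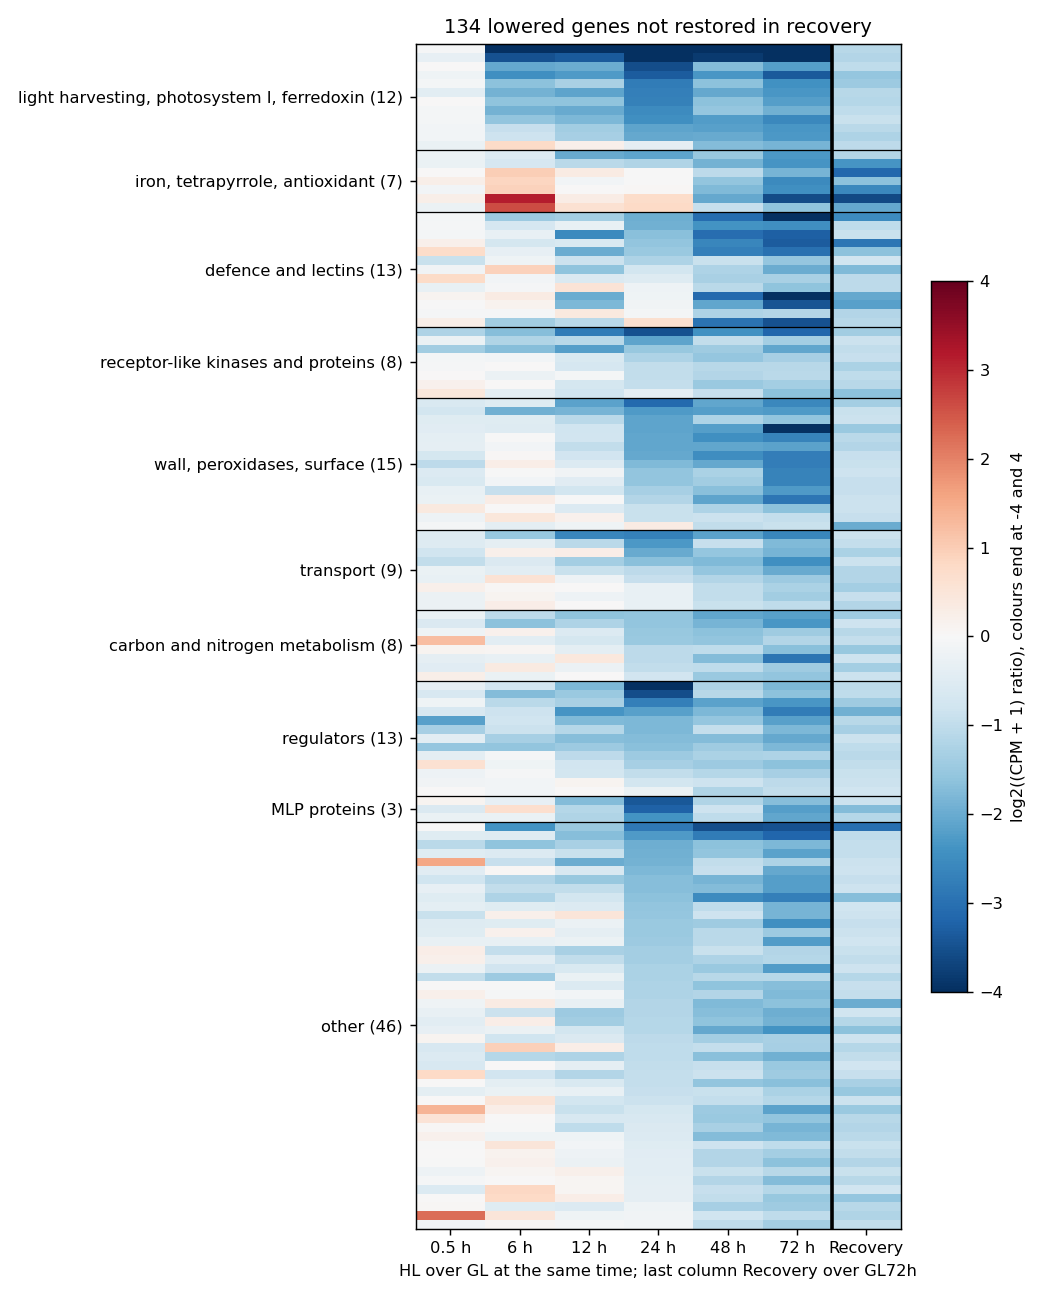
Each row is 1 of the 134 members, grouped by role, and each column the log2 ratio of CPM + 1 of HL over GL at 6 times, with recovery over GL72h at the right (blue low, red high, colours end at -4 and 4). The columns at 48 h, 72 h and recovery were used by the rule, 5 of 7 iron genes are red at 6 h and all are blue in recovery, and 11 of 12 light-harvesting genes are blue from 6 h and paler in recovery.

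Many members are scarce transcripts. In GL72h the members' means ran from 1.51 to 9800 CPM with a median of 17.4 CPM, and 47 were under 10 CPM. The added 1 CPM makes L and R understate the change of such genes.

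The choice of control matters for part of the set. With the mean of all 12 GL libraries in R, 88 of the 134 members stay at or below -0.8 and 46 do not. The 88 include all 12 light-harvesting and photosystem members, all 7 of the iron group and 13 of the 15 wall members, but 4 of the 9 transport and 3 of the 8 metabolism members. With GL48h in R, 89 of the 134 stay, among them 10 of the 15 wall members. Over 16 alternatives of the rule, 35 of the 134 members were kept in every one. Among them were 11 of the 12 light-harvesting and photosystem members and 5 of the 7 iron members. They also included 5 of the 13 defence and lectin members, 4 of the 13 regulators and 5 of the 46 members without a shared role. Of the wall, transport, metabolism, MLP and receptor-like kinase groups, 1 member each was kept in all. In GL itself, 15 members were lower and 11 higher at 24 h than at 0.5 h (all genes, 2.57% and 2.14%). When GL0.5h and GL24h alone were fitted, no member was lower and 4 were higher. No GL library of the age of the recovery plants was used, so age, hour of harvest and recovery cannot be told apart beyond 72 h. In GL alone, the summed level of the antenna list was 73800 to 74800 CPM at 6 h and 41800 to 43100 CPM at 12 h.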

How the data were processed

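Total RNA of whole seedlings was sequenced as polyadenylated, strand-marked single-end libraries, per the labels' protocols. Reads were aligned with TopHat2 2.1.1 to TAIR10 and counted per gene with HTSeq 0.6.0, and edgeR was used, per the submitters' processing notes. The strand setting of the counting is not given in the sources used here. The deposited values are raw counts per gene, 1 table per library. From them CPM was computed by library total for the rule and for all levels printed.

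Tests used edgeR 4.0.16 (R 4.3.3, limma 3.58.1): TMM scaling, the default filter with a minimum count of 10, 1 mean per group over all 26 libraries, and the quasi-likelihood test with Benjamini-Hochberg adjustment over 21449 genes. Genes were called at an adjusted p below 0.05. The contrasts at 48 h, 72 h and recovery chose the members and were not tested. The code was tested on simulated data. Alternatives were other scalings and filters, DESeq2 1.42.0, a replicate block, the compared groups alone and each library left out.

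The members, role groups and gene lists were chosen with earlier results of these data known. Named members are the 12 with the highest mean CPM, the 8 with the lowest R, up to 4 per gene list by mean CPM, the 6 lowest and 6 highest called log2 fold changes at 0.5 and 24 h with at least 5 CPM and groups that do not overlap, and the 3 genes on each side of the R threshold with at least 5 CPM in GL72h. PCC1, FUM2, AT3G16670, AT1G26250, AT1G52060, AT1G24147, AT5G19970 and SP1L4, and the genes outside the set, were chosen after their values were seen. Names, products and promoters come from RefSeq TAIR10.1 by locus, which matched 32835 of 33602 genes. Depth gives counting error only.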

Additional observations from a re-analysis of the deposited data

Results flagged for a closer look

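The HL effect differed between 0.5 and 24 h, by the test of that difference, in 88 members (edgeR quasi-likelihood test, Benjamini-Hochberg adjusted p below 0.05). It differed downward in 87 (all genes, 17.5%) and upward in 1 (14.9%). Of the 88, 8 members were called higher at 0.5 h and lower at 24 h. Over all tested genes, 13.5% were called higher at 0.5 h and 23.9% lower at 24 h. The share of all genes with both calls was not counted, so these 8 are a description only. The difference of their log2 fold changes, 24 h minus 0.5 h, was -4.99 for AT5G28630, -3.48 for PCK2, -3.19 for AT1G24147, -2.32 for AT3G15356 and -2.25 for AT5G19970. It was -1.84 for AT1G65490, -1.7 for AT4G07820 and -1.37 for SP1L4. Groups of 2 libraries allowed no check for single libraries that stand apart.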

How the results depend on the processing

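Of the alternatives for counts of calls and of members, 135 stayed within 1.5 times the main count and 25 did not. None of the 171 alternatives for the 24 h values of named genes changed its call, and no called value changed direction. A change of sign between values that were not called was not counted. These 171 cover RLE scaling, the replicate block and DESeq2 only. With no filter on low counts, 44 members were lower at 0.5 h, 6 higher at 12 h, and 26 lower and 20 higher in GL24h against GL0.5h. At 12 h, DESeq2 gave 1 higher and a fit of the compared groups alone gave 5. That fit gave 0 lower and 4 higher for GL24h against GL0.5h. The rule gave 55 members with 5 CPM added and 67 with a threshold of -1. The cause of these shifts was not tested.

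Leaving out 1 library at a time gave 14 to 40 lower and 7 to 14 higher at 0.5 h, 43 to 49 and 10 to 14 at 6 h, 68 to 85 and 1 to 2 at 12 h, and 103 to 106 and 1 to 2 at 24 h. The change in effect from 0.5 to 24 h gave 79 to 94 lower and 1 to 2 higher, GL24h against GL0.5h gave 2 to 27 lower and 6 to 16 higher, and the rule gave 112 to 169 members.

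The replicate numbers do not pair the libraries: the correlation of same-numbered deviations was -0.086, -0.102, -0.144 and -0.006 at 0.5, 6, 12 and 24 h. With the number as a block, 29 were lower and 9 higher at 0.5 h, 50 and 15 at 6 h, 86 and 2 at 12 h, 110 and 2 at 24 h, 87 and 1 for the change in effect, and 15 and 9 for GL24h against GL0.5h. Crossed numbers gave 49 and 15 at 6 h and 86 and 2 at 12 h.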
